A study of Homo sapiens with 20 samples.

Results

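HMOX1, the ferritin light chain gene FTL and 8 further genes that the oxidant-responsive transcription factor NRF2 is known to control are described here on 20 exon arrays of the human cell lines LP-1 and Raji. The 10 genes are HMOX1, FTL, SRXN1, GCLC, GCLM, TXNRD1, SLC7A11, PRDX1, GSR and PGD. They were taken from 14232 genes measured by a probe set with 1 gene symbol, and each of the 10 had 1 such probe set. They were selected on their log2 values in LP-1, where HMOX1 stood high with an inactive compound and lower with its active mirror image and SRXN1 and FTL went the other way, so differences between compounds in LP-1 are given for these genes as values without a test. The same genes in Raji were not used for that choice and were tested there.

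LP-1 derives from multiple myeloma, a plasma cell cancer, and Raji from a Burkitt lymphoma, a B cell cancer. Each line was sampled without compound at 0 h, and after 4 or 8 h in 500 nM of either a BET inhibitor or the enantiomer that lacks its activity. BET proteins read acetylated histones at active genes through their bromodomains. That gives 10 groups of 2 biological replicates, 5 in each line, and the compound itself is not named in the labels. LP-1 was grown in IMDM and Raji in RPMI, both with 10% serum, and no vehicle or untreated cells were sampled at 4 or 8 h, so in comparisons with untreated cells the compound and the time in culture cannot be told apart. Every level is a log2 expression value, on which 1 unit is a doubling, and the small number of arrays limits the precision. In bulk RNA of this kind, fewer cells of a type and less RNA per cell cannot be told apart.

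The lines carried the markers of their labels. All 8 plasma cell markers measured lay above the array median in LP-1 (mean level of the list 8.43 to 9.47 over its 10 arrays, against 5.81 to 6.60 in Raji), and all 7 B cell markers did so in Raji (7.91 to 9.06, against 4.40 to 5.26 in LP-1). Markers of myeloid, erythroid and T or NK cells averaged 3.48 to 4.46, below every array median (5.132 to 5.395), with 1 of 6 myeloid, 0 of 3 erythroid and 1 of 6 T or NK markers above it in each line. Plasma cell markers in LP-1 averaged 9.33 untreated, 9.10 with the inactive enantiomer and 8.59 with the inhibitor, and B cell markers in Raji 9.05, 8.76 and 8.08, and the part of this shift in the results below was not tested. LP-1 BET inhibitor 4 h replicate 1 stood apart in the spread of its values, with the lowest 75th percentile of its line (6.797, against 7.028 on its replicate), and differences between the compounds in LP-1 at 4 h are given with and without it. Raji inactive 4 h replicate 1 had the lowest of its line (6.754, against 6.851). The next widest gaps between replicates were those of LP-1 inactive 8 h (6.913 and 7.07), Raji inhibitor 4 h (6.898 and 7.038) and Raji inactive 8 h (7.005 and 6.891).

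NRF2 is a transcription factor that its partner KEAP1 normally marks for destruction. Oxidants and reactive chemicals disarm KEAP1, NRF2 accumulates, pairs with a small MAF protein and binds the antioxidant response element, while the haem-sensing repressors BACH1 and BACH2 compete for the same DNA. Its targets make and recycle glutathione and thioredoxin, supply NADPH, and handle haem and iron. HMOX1 encodes haem oxygenase, which opens haem and frees its iron, and ferritin, of which FTL is the light chain, stores that iron. Ferritin is also controlled after transcription: iron regulatory proteins bind a hairpin in its messenger RNA when iron is scarce and hold back translation, which an RNA array does not see.

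That hairpin lies near the start of FTL and is shown in part because it separates the level of FTL RNA from the level of the protein. The part shown is on the plus strand at chr19:48965333-48965358 of GRCh38.p14 (RefSeq). It stops where the supplied sequence ended, so the arm of the hairpin after the loop is cut short. Capitals mark the bases of the loop.
FTL iron-responsive element: gtctcttgcttcaaCAGTGTttggac

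RefSeq windows of the 250 bases before the transcript start (GRCh38.p14) were given for 6 of the 10 genes, in 7 windows. The letters TGACNNNGC, the core of the antioxidant response element, were searched on both strands and were present for 3 of the 6 genes, GCLM, TXNRD1 and PGD, and in 10.9% of 34788 windows of all genes. The windows of FTL, SRXN1 and GCLC lacked these letters. None of the 7 windows held TGANTCA, the AP-1 site (6.59% of all windows), or CACGTG, the E-box bound by MYC (6.31%). The 4 windows with a match are printed 5′ to 3′ along the gene, with the match in capitals: GCLM at chr1:93909431-93909680 (minus strand), TXNRD1 at chr12:104215529-104215778 and chr12:104286782-104287031 (plus strand), and PGD at chr1:10398814-10399063 (plus strand). They are shown because GCLM and TXNRD1 are among the genes called in Raji below, and a match describes letters, not binding.
GCLM: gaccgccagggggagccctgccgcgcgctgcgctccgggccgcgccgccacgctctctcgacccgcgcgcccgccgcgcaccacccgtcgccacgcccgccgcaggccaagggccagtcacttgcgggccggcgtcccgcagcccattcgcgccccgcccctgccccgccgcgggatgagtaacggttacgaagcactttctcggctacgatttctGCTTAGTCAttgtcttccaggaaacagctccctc
TXNRD1 first window: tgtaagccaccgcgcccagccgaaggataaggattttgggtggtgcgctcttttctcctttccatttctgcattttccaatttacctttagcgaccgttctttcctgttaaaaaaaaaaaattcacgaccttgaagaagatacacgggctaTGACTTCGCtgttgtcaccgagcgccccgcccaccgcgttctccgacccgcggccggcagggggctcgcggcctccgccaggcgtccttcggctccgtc
TXNRD1 second window: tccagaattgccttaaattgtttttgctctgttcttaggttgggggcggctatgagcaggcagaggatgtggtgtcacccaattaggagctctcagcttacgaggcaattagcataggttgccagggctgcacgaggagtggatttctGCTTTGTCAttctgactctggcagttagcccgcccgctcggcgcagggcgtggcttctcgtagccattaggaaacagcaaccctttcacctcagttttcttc
PGD: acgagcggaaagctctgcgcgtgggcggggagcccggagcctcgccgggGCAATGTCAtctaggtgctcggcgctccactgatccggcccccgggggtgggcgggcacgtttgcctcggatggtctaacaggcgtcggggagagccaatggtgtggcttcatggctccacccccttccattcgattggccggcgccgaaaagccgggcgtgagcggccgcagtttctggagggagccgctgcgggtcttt
The match of GCLM ends 26 bases before the start and reads on the strand opposite to the gene, as do those of the second TXNRD1 window and of PGD. In the first TXNRD1 window it lies on the strand of the gene, from 99 to 91 bases before the start.

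**Figure D1:**
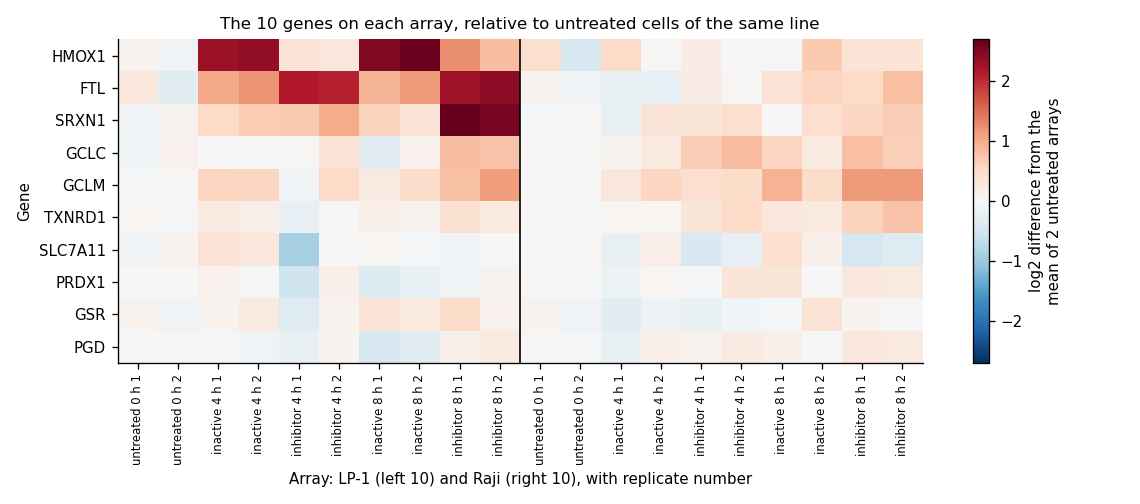
Log2 difference of each gene (rows) on each of the 20 arrays (columns, LP-1 left and Raji right) from the mean of the 2 untreated arrays of the same line, in colour. HMOX1 is high on all 4 LP-1 arrays with the inactive enantiomer, FTL on all 8 LP-1 arrays with a compound, most with the inhibitor, and SRXN1 most on the 2 LP-1 arrays with the inhibitor at 8 h.

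In LP-1, HMOX1 was high with the inactive enantiomer and stayed much nearer the untreated level with the inhibitor. Its log2 level was 7.76 and 7.56 on the untreated arrays, 9.99 and 10.05 with the inactive enantiomer at 4 h and 8.05 and 7.97 with the inhibitor at 4 h. At 8 h it was 10.17 and 10.30 with the inactive enantiomer and 8.91 and 8.49 with the inhibitor. All 4 arrays with the inactive enantiomer lay above all 6 others of this line, and no groups overlapped. Ordered by mean, untreated (7.66), inhibitor 4 h (8.01), inhibitor 8 h (8.70), inactive 4 h (10.02) and inactive 8 h (10.24) followed each other. The step between both times of the inactive enantiomer was below the standard error of a difference for this gene (0.29), and that from untreated to inhibitor 4 h (0.35) was little above it.

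HMOX1 stood 2.36 ± 0.29 log2 units above untreated cells with the inactive enantiomer at 4 h (5.14-fold, standard error of the fit, n = 2 arrays a group) and 2.57 ± 0.29 above them at 8 h (5.96-fold). Of 22011 probe sets, it ranked 4 from the top in this difference at both times. The ranks of HMOX1, FTL and SRXN1 in LP-1 describe values that chose these genes, and nothing is read from them. With the inhibitor HMOX1 stood 0.35 ± 0.29 above untreated cells at 4 h and 1.04 ± 0.29 at 8 h, again as values without a test. Set against the inactive enantiomer at the same time, the inhibitor left HMOX1 lower by 4.04-fold at 4 h (-2.02 ± 0.29) and 2.90-fold at 8 h (-1.53 ± 0.29). Without the LP-1 inhibitor array that stood apart, the 4 h difference was -2.05 between the compounds and 0.31 over untreated cells. At 8 h both arrays of each compound lay above both untreated arrays for HMOX1, further above with the inactive form.

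FTL was above untreated cells with both compounds in LP-1, and further above them with the inhibitor. Its level was 7.19 and 6.61 untreated, 7.93 and 8.12 with the inactive enantiomer at 4 h, and 7.82 and 8.06 with it at 8 h. With the inhibitor it was 9.07 and 8.97 at 4 h and 9.19 and 9.31 at 8 h. The untreated, inactive and inhibitor arrays formed 3 tiers without overlap, while within a compound the times lay close. The inactive enantiomer over untreated came to 1.13 ± 0.18 at 4 h and 1.04 ± 0.18 at 8 h, and these values depended on which untreated array was kept (0.83 to 1.42 at 4 h and 0.75 to 1.33 at 8 h with 1 array left out). The inhibitor over untreated came to 2.12 ± 0.18 at 4 h (4.34-fold, rank 12 of 22011, or 2.07 without the array that stood apart) and 2.35 ± 0.18 at 8 h (5.10-fold, rank 17). Against the inactive enantiomer the inhibitor stood higher by 0.99 ± 0.18 at 4 h (0.94 without the array that stood apart) and 1.31 ± 0.18 at 8 h. FTL thus opposed HMOX1 between the compounds and went the same way as HMOX1 between untreated cells and either compound.

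SRXN1 encodes sulfiredoxin, which repairs peroxiredoxins that have been oxidised too far. In LP-1 its level was 6.83 and 7.01 untreated, 7.46 and 7.60 with the inactive enantiomer at 4 h, 7.52 and 7.30 with it at 8 h, and 7.62 and 7.92 with the inhibitor at 4 h. At 8 h with the inhibitor it was 9.60 and 9.49, well above the other 8 arrays. The inhibitor exceeded the inactive enantiomer by 0.24 ± 0.19 at 4 h, about the standard error (0.39 without the array that stood apart), and by 2.14 ± 0.19 at 8 h (4.40-fold, rank 45 of 22011). Over untreated cells the inhibitor stood at 0.85 ± 0.19 and 2.62 ± 0.19 at 4 and 8 h (6.17-fold at 8 h, rank 8, and 1.0 at 4 h without the array that stood apart), and the inactive enantiomer at 0.61 ± 0.19 and 0.49 ± 0.19. From 4 to 8 h the difference between the compounds moved up by 1.90 ± 0.27 for SRXN1, 0.32 ± 0.26 for FTL and 0.48 ± 0.41 for HMOX1 (1.75, 0.37 and 0.52 without the array that stood apart). For SRXN1 and FTL this is a wider gap, and for HMOX1, whose difference was negative, a narrower one.

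**Figure D2:**
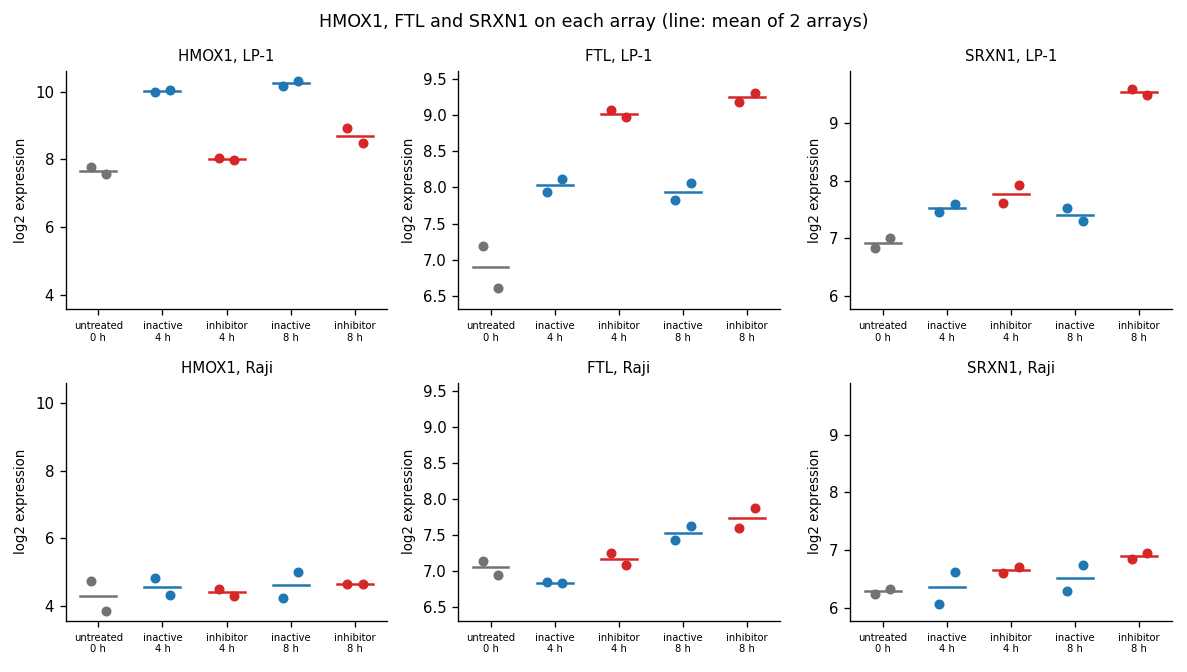
Log2 expression of HMOX1, FTL and SRXN1 on each array (points) with the mean of the 2 arrays of a group (lines), for LP-1 (top) and Raji (bottom), on the same scale for both lines of a gene. In LP-1 HMOX1 peaks with the inactive enantiomer (9.99 to 10.30), FTL with the inhibitor at both times (8.97 to 9.31) and SRXN1 with the inhibitor at 8 h (9.49 and 9.60); in Raji HMOX1 lies between 3.87 and 5.0 on all arrays.

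Among the other 7 genes in LP-1, GCLC, GCLM, TXNRD1, PRDX1 and PGD lay higher on both inhibitor arrays than on both inactive arrays at 8 h. Without LP-1 inactive 8 h replicate 1, the array of the lower 75th percentile, their differences were 0.69, 0.47, 0.26, 0.19 and 0.50. GCLC, the catalytic subunit of glutamate-cysteine ligase, which makes the first intermediate of glutathione, was at 7.41 and 7.80 with the inactive enantiomer and 8.52 and 8.47 with the inhibitor, a difference of 0.89 ± 0.17. At 4 h GCLC differed by 0.25 ± 0.17 (0.43 without the array that stood apart). GCLM, the modifier subunit of the same enzyme, was at 6.69 on both inactive arrays at 4 h and at 6.03 and 6.62 with the inhibitor (-0.37 ± 0.20). At 8 h GCLM was at 6.35 and 6.58 against 6.89 and 7.22 (0.59 ± 0.20). Both subunits were thus higher on both inhibitor arrays at 8 h, while at 4 h they lay on opposite sides, and 6.03 for GCLM is the value of the array that stood apart (difference without it -0.07).

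SLC7A11, the cystine importer that feeds glutathione synthesis, had its lowest value in LP-1 on the array that stood apart. Its level with the inhibitor at 4 h was 6.11 and 7.0 against 7.39 and 7.29 with the inactive enantiomer, and the difference of -0.78 ± 0.23 was -0.34 without that array. At 8 h the arrays overlapped (6.92 and 6.98 against 7.05 and 6.97, -0.06 ± 0.23). TXNRD1, the reductase that recharges thioredoxin, was at 8.60 and 8.86 with the inhibitor against 9.07 and 8.98 at 4 h (-0.30 ± 0.12, or -0.17 without the array that stood apart) and at 9.25 and 9.10 against 8.98 and 8.92 at 8 h (0.23 ± 0.12). It lay lower on both inhibitor arrays at 4 h and higher on both at 8 h.

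PRDX1, a peroxiredoxin that breaks down hydrogen peroxide, differed by -0.23 ± 0.20 at 4 h in LP-1, with overlapping arrays, and by 0.10 without the array that stood apart. At 8 h PRDX1 was at 8.89 and 9.07 with the inhibitor and 8.62 and 8.79 with the inactive enantiomer (0.28 ± 0.20). GSR, which regenerates reduced glutathione, overlapped between the compounds at both times (-0.29 ± 0.18, or -0.07 without the array that stood apart, and -0.02 ± 0.18). PGD, an enzyme of the pentose phosphate pathway that makes NADPH, was at 10.06 and 10.34 against 10.24 and 10.15 at 4 h (0.00 ± 0.14, or 0.14 without the array that stood apart) and at 10.41 and 10.52 against 9.83 and 9.96 at 8 h (0.57 ± 0.14). For PGD the 8 h gap includes inactive arrays below the untreated ones (10.22 and 10.31), with the inactive enantiomer at -0.37 ± 0.14 from untreated.

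Counted over all 10 genes, both inhibitor arrays lay above both inactive arrays in LP-1 for 3 genes at 4 h (17.6% of all probe sets) and below them for 4 (26.4%). At 8 h 7 genes lay above (27.9% of all probe sets) and 1, HMOX1, below (16.3%). The median difference of the 10 was -0.26 at 4 h and 0.42 at 8 h, against -0.04 and 0.06 over all probe sets. With the inactive enantiomer against untreated cells, 6 genes lay above at 4 h (15.5%) and 0 below (25.5%), and at 8 h 6 lay above (13.8%) and 2, PRDX1 and PGD, below (32.9%). With the inhibitor against untreated cells, 3 lay above at 4 h (17.2%) and 0 below (30.6%), and at 8 h 8 lay above (23.8%) and 0 below (25.1%). These shares belong to comparisons that chose the genes or share arrays with them, and nothing is read from them.

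**Figure D3:**
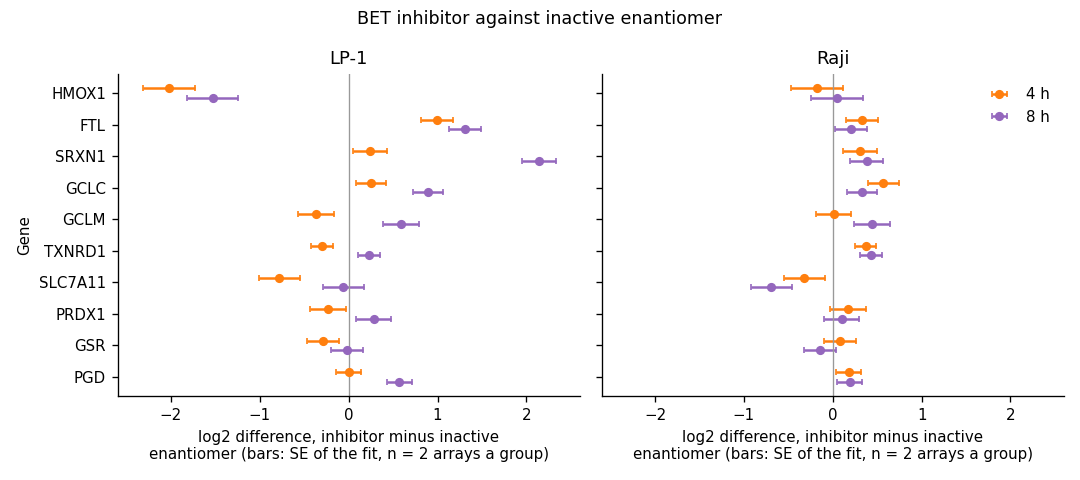
Log2 difference of the BET inhibitor minus the inactive enantiomer for each gene at 4 and 8 h in LP-1 (left) and Raji (right), with bars for the standard error of the fit (n = 2 arrays a group). In LP-1 HMOX1 lies at -2.02 and -1.53 and SRXN1 moves from 0.24 to 2.14, while in Raji every difference lies between -0.69 and 0.57.

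In Raji HMOX1 stayed low on every array and did not differ detectably between the compounds. Its lowest level was 3.87, its median 4.59 and its highest 5.0 over 10 arrays, below the median of the array on all 10, and it was not tested against background, which leaves little room to see a decrease. The inhibitor minus the inactive enantiomer was -0.18 ± 0.29 at 4 h (95% interval -0.80 to 0.45, adjusted p = 0.861) and 0.05 ± 0.29 at 8 h (-0.57 to 0.67, adjusted p = 0.979). The sign turned without inactive replicate 1 of each time (0.08 at 4 h and -0.33 at 8 h). The Raji difference minus the LP-1 difference was 1.84 ± 0.41 at 4 h and 1.58 ± 0.41 at 8 h, given as a description because LP-1 chose the gene. The inactive enantiomer against untreated Raji cells gave 0.28 ± 0.29 at 4 h and 0.32 ± 0.29 at 8 h (adjusted p = 0.892 and 0.996).

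FTL and SRXN1 were well measured in Raji, with no array below its median, and neither passed the test between the compounds. FTL was at 7.14 and 6.95 untreated, 6.85 and 6.83 with the inactive enantiomer and 7.25 and 7.09 with the inhibitor at 4 h, and at 8 h 7.43 and 7.63 against 7.59 and 7.87. The differences between the compounds were 0.33 ± 0.18 (-0.07 to 0.72, adjusted p = 0.474) and 0.20 ± 0.18 (-0.19 to 0.59, adjusted p = 0.758). SRXN1 ranged from 6.07 to 6.95 over all Raji arrays, and its differences were 0.31 ± 0.19 (-0.11 to 0.73, adjusted p = 0.531, or 0.03 without Raji inactive 4 h replicate 1) and 0.38 ± 0.19 (-0.04 to 0.80, adjusted p = 0.454). At 8 h both SRXN1 arrays with the inhibitor (6.84 and 6.95) lay above both with the inactive enantiomer (6.29 and 6.74). The Raji minus LP-1 difference was -0.67 ± 0.26 and -1.11 ± 0.26 for FTL and 0.07 ± 0.27 and -1.76 ± 0.27 for SRXN1 at 4 and 8 h, again as a description. The sign of SRXN1 at 4 h turned without Raji inactive 4 h replicate 1 (-0.20) or the LP-1 array that stood apart (-0.08).

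None of the 10 genes passed the test between the compounds in Raji by limma, where 1.78% of all probe sets were called at 4 h and 1.88% at 8 h. At an unadjusted p under 0.05 the counts were 2 of 10 at 4 h (14.1% of all probe sets) and 3 of 10 at 8 h (13.0%). Both inhibitor arrays lay above both inactive arrays for 3 genes at 4 h (23.5% of probe sets) and below for 1 (20.2%), and for 5 at 8 h (20.3%) and 1 (20%). The median difference of the 10 was 0.18 at 4 h and 0.20 at 8 h, against 0.01 and 0.00 over all probe sets. The smallest adjusted p at 8 h was that of TXNRD1, at 8.92 and 9.07 against 8.59 and 8.55 (0.43 ± 0.12, 95% interval 0.18 to 0.68, adjusted p = 0.0948, but 0.0458 after quantile normalization). At 4 h GCLC had the smallest, at 7.32 and 7.49 against 6.75 and 6.92 (0.57 ± 0.17, 0.20 to 0.94, adjusted p = 0.129). The gene that lay below at both times was SLC7A11, at 8.03 and 8.21 against 8.25 and 8.62 at 4 h and at 7.99 and 8.09 against 8.89 and 8.57 at 8 h. Its differences were -0.32 ± 0.23 and -0.69 ± 0.23 (95% interval at 8 h -1.19 to -0.20, adjusted p = 0.605 and 0.176). Without Raji inactive 4 h replicate 1, 0 of 10 passed at 4 h, with GCLC at 0.48, TXNRD1 at 0.37, FTL at 0.34, GCLM at -0.14 and SLC7A11 at -0.50.

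Against untreated Raji cells, 3 of the 10 genes, GCLM, TXNRD1 and GCLC, rose with the inhibitor at 8 h (2.26% of probe sets were called, 1.04% as higher). GCLM was at 6.50 and 6.48 untreated and 7.64 and 7.65 with the inhibitor, a rise of 1.15 ± 0.20 (2.22-fold, adjusted p = 0.010). TXNRD1 was at 8.28 and 8.29 untreated and 8.92 and 9.07 with the inhibitor (0.71 ± 0.12, 1.63-fold, adjusted p = 0.00845). GCLC was at 6.65 and 6.67 untreated and 7.47 and 7.31 with the inhibitor (0.73 ± 0.17, adjusted p = 0.0449). None of these groups overlapped with its untreated arrays. Leaving out each of the 4 arrays in turn ended the calls of GCLM and GCLC (highest adjusted p 0.0962 and 0.232), and that of TXNRD1 without either untreated array (0.0823 and 0.0794) or inhibitor replicate 2 (0.0866). FTL came to 0.68 ± 0.18 (adjusted p = 0.0744, but 0.0438 with the dimmest probe sets left out) and SRXN1 to 0.62 ± 0.19 (adjusted p = 0.137).

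The inactive enantiomer, which shares the untreated arrays, gave values on the same side for these genes in Raji. At 8 h GCLM was at 7.43 and 6.99 with it (0.71 ± 0.20 over untreated, adjusted p = 0.721), GCLC at 7.23 and 6.90 (0.41 ± 0.17) and TXNRD1 at 8.59 and 8.55 (0.28 ± 0.12, both adjusted p = 0.996). No probe set was called for this comparison at either time (0.0%), and of the 10 genes 1 at 4 h and 4 at 8 h had an unadjusted p under 0.05, against 7.91% and 4.52% of all probe sets. With the inhibitor at 4 h, 0 of 10 passed (1.26% of probe sets called, 3 genes at an unadjusted p under 0.05, against 12.1% of all probe sets), the nearest being GCLC at 0.74 ± 0.17 (adjusted p = 0.0552). Both inhibitor arrays lay above both untreated arrays for 5 genes at 4 h (21.5%) and 7 at 8 h (24.7%), and below for 1 each time (27.2% and 24.1%), SLC7A11. For the inactive enantiomer 3 lay above and 2 below at 4 h (14.3% and 24.7%), and 5 above and 0 below at 8 h (17.4% and 17.8%). The difference between compounds did not pass a test between 4 and 8 h for any of the 10 in Raji (0.0% of probe sets called, 0 genes at an unadjusted p under 0.05, against 5.71% of all probe sets).

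**Figure D4:**
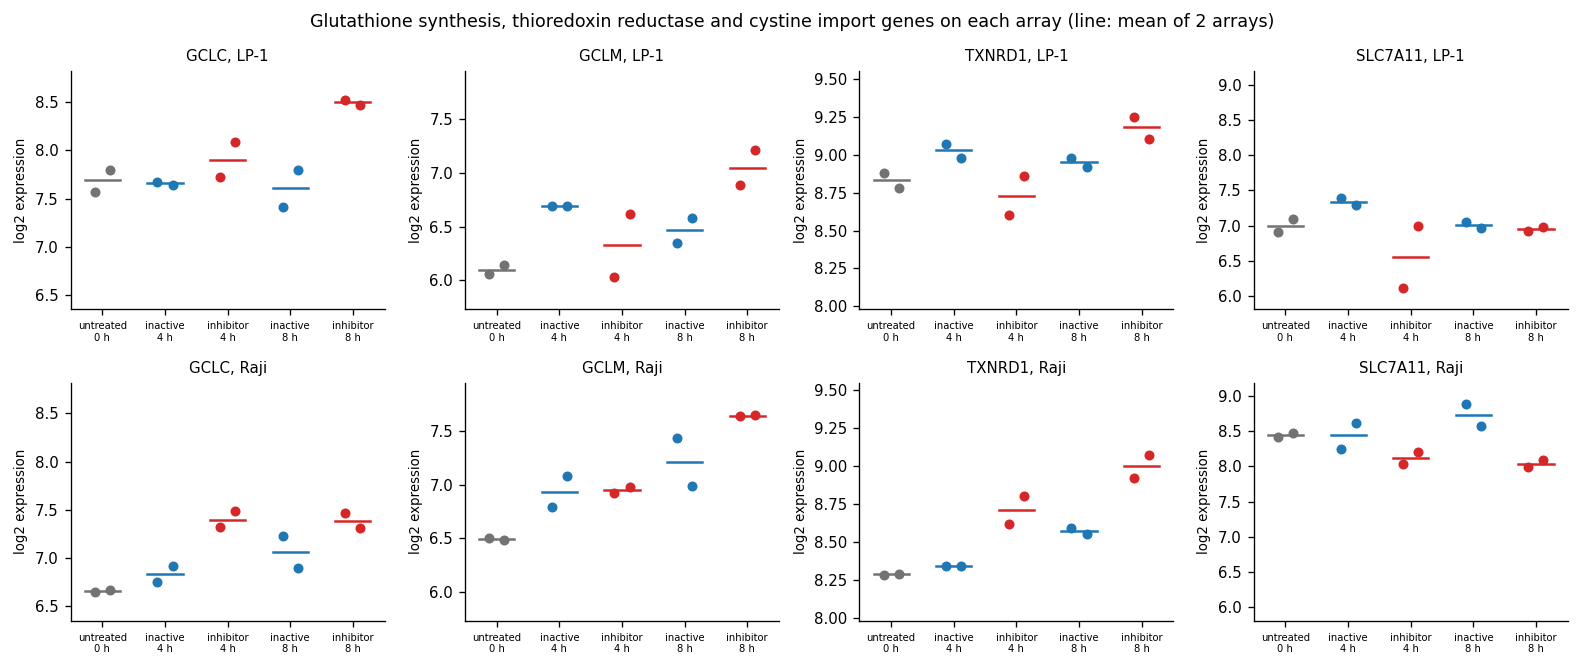
Log2 expression of GCLC, GCLM, TXNRD1 and SLC7A11 on each array (points) with group means (lines), for LP-1 (top) and Raji (bottom), on the same scale for both lines of a gene. GCLM in Raji lies at 7.64 and 7.65 with the inhibitor at 8 h against 6.50 and 6.48 untreated, and SLC7A11 in LP-1 has its lowest value, 6.11, on inhibitor 4 h replicate 1.

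PRDX1, GSR and PGD did not pass the test between the compounds in Raji. PRDX1 ranged from 9.72 to 10.19, GSR from 7.77 to 8.42 and PGD from 10.29 to 10.76 over the 10 arrays. Between the compounds their differences lay between -0.14 and 0.19, with adjusted p from 0.651 to 0.919. At 8 h the 95% interval was -0.33 to 0.54 for PRDX1, -0.54 to 0.25 for GSR and -0.11 to 0.49 for PGD.

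Before any compound the lines differed in most of these genes. Of the 7 whose line difference was not part of their choice, 5 passed, where 24.3% of all probe sets did (6.79% higher and 17.5% lower in Raji). SLC7A11 was higher in untreated Raji (8.42 and 8.47) than in untreated LP-1 (6.91 and 7.10), by 1.44 ± 0.23 (adjusted p = 0.000346), and PRDX1 by 0.88 ± 0.20 (adjusted p = 0.00509). GCLC was lower in Raji by 1.03 on the log2 scale (-1.03 ± 0.17, adjusted p = 0.000486), as were TXNRD1 (-0.54 ± 0.12, adjusted p = 0.00367) and GSR (-0.78 ± 0.18, adjusted p = 0.00624). GCLM (0.39 ± 0.20, adjusted p = 0.197) and PGD (0.21 ± 0.14, adjusted p = 0.345) did not pass. The call of GSR was lost without LP-1 untreated replicate 1 (adjusted p = 0.0592) or Raji untreated replicate 2 (adjusted p = 0.0641), and that of TXNRD1 after quantile normalization (-0.28, adjusted p = 0.0588), where GCLM passed (0.65, adjusted p = 0.0116). HMOX1 was at 4.74 and 3.87 in untreated Raji against 7.76 and 7.56 in untreated LP-1, and since the Raji values lie below the array median with no test against background, the size of this difference is not given as a fold. SRXN1 was at -0.64 ± 0.19, while the FTL arrays of the lines overlapped (0.15 ± 0.18). Medium and line cannot be told apart in this comparison.

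Over the 10 arrays of each line, the levels of the 10 genes were set against each other as a description, since arrays of a group share their treatment. In LP-1 SRXN1 was most like GCLC (Pearson's r = 0.89), GCLM (0.80) and FTL (0.79), and HMOX1 had r = 0.03 with FTL and -0.01 with SRXN1. In Raji GCLC and TXNRD1 (0.87), GCLM and TXNRD1 (0.82) and PRDX1 and PGD (0.84) were the closest pairs, and SLC7A11 had r = -0.54 with TXNRD1. Among 14231 other genes, those most like HMOX1 over the LP-1 arrays were ANXA1 (r = 0.968), RPS21 (0.889), LPXN (0.885) and DHRS3 (0.865). Those most like FTL were ETV5 (0.958), RNF207 and KCNRG (0.953 each) and RHOJ (0.944), and those most like SRXN1 were HLA-E (0.964), TSC22D2 (0.962), PEA15 (0.959) and CYP3A5 (0.951). In Raji the nearest were LCE1F to HMOX1 (0.916), BTBD3 to FTL (0.920) and NUP62CL to SRXN1 (0.952), over a narrower range of levels.

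Beyond the 10, 122 further genes of NRF2 control, glutathione, thioredoxin, haem, iron, the pentose phosphate pathway and heat shock were measured out of 158 listed, in lists that share a few genes. The lists were chosen with earlier results of these data known, so nothing is read from an excess of their calls over the share of all probe sets. The inhibitor against the inactive enantiomer called 2 of them higher and 3 lower in LP-1 at 4 h (4.10% in all, where 2.28% of all probe sets were called, 0.377% higher and 1.90% lower). At 8 h it called 14 higher and 3 lower in LP-1 (13.9%, where 5.73% of probe sets were called, 3.76% higher and 1.97% lower). In Raji 4 were higher and 1 lower at 4 h (4.10%, where 1.44% of probe sets were higher and 0.341% lower), and 2 higher and 4 lower at 8 h (4.92%, where 0.827% were higher and 1.05% lower). The genes for NRF2 itself (NFE2L2), NQO1 and the ferritin heavy chain (FTH1) had no probe set with 1 symbol and are not analysed here.

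Of 12 measured regulators of NRF2 and HMOX1, KEAP1 and BACH2 were lower with the inhibitor than with the inactive enantiomer in LP-1 at 4 h. In that comparison 1.90% of all probe sets were called lower. At 8 h 2 were higher in LP-1 (3.76% of all probe sets). In Raji 0 passed between the compounds at either time by limma (1 at an unadjusted p under 0.05 each time, against 14.1% and 13.0% of all probe sets). KEAP1, the brake on NRF2, was at 7.62 and 7.33 untreated, 7.61 and 7.40 with the inactive enantiomer and 6.15 and 6.73 with the inhibitor (-1.07 ± 0.20, 2.10-fold lower, adjusted p = 0.0139). The lower of these arrays is the one that stood apart, without which the difference was -0.78 (adjusted p = 0.121). The call was also lost without inactive replicate 1 or 2 (adjusted p = 0.137 and 0.0802). At 8 h KEAP1 did not pass in LP-1 (-0.30 ± 0.20, adjusted p = 0.472), nor in Raji at 4 h (-0.10 ± 0.20) or 8 h (0.04 ± 0.20). BACH2, a repressor of HMOX1 best known in B cells, was at 6.48 and 6.88 with the inactive enantiomer and 5.92 and 6.03 with the inhibitor (-0.71 ± 0.13, adjusted p = 0.0138), against 6.11 and 6.13 untreated. Its call was lost without inhibitor replicate 1 (adjusted p = 0.0989) or inactive replicate 2 (adjusted p = 0.161). BACH1, the main repressor of HMOX1, was higher in LP-1 at 8 h with the inhibitor (8.47 and 8.03) than with the inactive enantiomer (7.52 and 7.67). The difference was 0.66 ± 0.18 (adjusted p = 0.0481), a call lost without any array but inhibitor replicate 2. The inactive arrays lay below the untreated ones (7.96 and 7.76), and BACH1 with the inhibitor did not pass against untreated cells by limma (0.38 ± 0.18, adjusted p = 0.244). GSK3B, a kinase that marks NRF2 for destruction, was higher between the compounds in LP-1 at 8 h by 0.67 ± 0.16 (adjusted p = 0.0250), a call lost without any 1 of the 4 arrays. It too did not pass against untreated LP-1 cells by limma (0.41 ± 0.16, adjusted p = 0.153). In Raji at 8 h GSK3B passed over untreated cells (0.84 ± 0.16, adjusted p = 0.0151), as 1 of the 12, where 1.04% of all probe sets were called higher. That call was also lost without any 1 of the 4 arrays, and between the compounds GSK3B did not pass there (0.62 ± 0.16, adjusted p = 0.0666).

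Of 19 other NRF2 targets, 3 were higher with the inhibitor than with the inactive enantiomer in LP-1 at 8 h (3.76% of all probe sets). In Raji at 8 h 1 was lower (1.05%). At 4 h 0 passed in LP-1 or Raji by limma (1 and 3 at an unadjusted p under 0.05, against 14.3% and 14.1% of all probe sets), with list medians between -0.10 and 0.03 against -0.04 to 0.06 over all genes. IDH1, which makes NADPH in the cytosol, was at 9.54 and 9.57 untreated, 8.55 and 8.30 with the inactive enantiomer at 8 h and 9.32 and 9.37 with the inhibitor (0.92 ± 0.15, adjusted p = 0.00454). The inactive level was itself below untreated (-1.13 ± 0.15, adjusted p = 0.0101, in a comparison that called 0.504% of probe sets), a call lost without any array but inactive replicate 1 (highest adjusted p 0.102). The other 2 were AKR1C3, an aldo-keto reductase (0.71 ± 0.18, adjusted p = 0.0376), and OSGIN1 (0.58 ± 0.15, adjusted p = 0.0372), whose calls were lost without any 1 of the 4 arrays. AKR1C3 lay far below every array median (2.69 and 2.82 against 3.52 and 3.40), with no test against background. Against untreated LP-1 cells at 8 h, OSGIN1 with the inhibitor passed by limma (0.69 ± 0.15, adjusted p = 0.013) and AKR1C3 did not (0.50 ± 0.18, adjusted p = 0.118). In that comparison 1 of the 19 was called higher and 3 lower (ABCC1, ABCC4 and UGDH), where 434 of 22011 probe sets were higher and 1251 lower. SLC3A2, the heavy chain that carries SLC7A11 to the cell surface, fell in Raji at 8 h from 7.62 and 7.65 to 6.91 and 7.05 (-0.66 ± 0.14, adjusted p = 0.0327), a call likewise lost without any 1 array.

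Of 34 measured genes of the thioredoxin and glutathione systems outside the 10, 1 and 7 were higher with the inhibitor than with the inactive enantiomer in LP-1 at 4 and 8 h (0.377% and 3.76% of all probe sets). In Raji 3 and 2 were higher (1.44% and 0.827%). The list medians were -0.01 and 0.19 in LP-1 and 0.14 and 0.01 in Raji. TXNIP, which binds and inhibits thioredoxin, rose in both lines at both times. It was at 7.45 and 7.60 with the inactive enantiomer and 8.41 and 8.83 with the inhibitor at 4 h in LP-1 (1.09 ± 0.16, adjusted p = 0.00552), and 6.94 and 7.18 against 9.02 and 9.06 at 8 h (1.97 ± 0.16, adjusted p = 7.19e-05). In Raji the rises were 1.23 ± 0.16 (adjusted p = 0.00399) and 1.03 ± 0.16 (adjusted p = 0.00895). The 4 h calls were lost without LP-1 inactive replicate 1 (adjusted p = 0.0742) and without Raji inhibitor replicate 2 (adjusted p = 0.0682), and that at 8 h in Raji without 3 of 4 arrays (all but inhibitor replicate 1, highest adjusted p 0.0780). SESN3, a sestrin, rose by 1.17 ± 0.16 in LP-1 at 8 h and by 1.86 ± 0.16 and 1.75 ± 0.16 in Raji (adjusted p = 0.00136, 0.000368 and 0.000528), and kept these calls without each array. SESN1 (1.05 ± 0.26, adjusted p = 0.0343) and the glutaredoxin gene GLRX (0.91 ± 0.25, adjusted p = 0.0487) were also higher at 8 h in LP-1, calls lost without any 1 of the 4 arrays. Their inactive arrays in LP-1 lay below the untreated ones. In Raji SESN1 (0.98 and 1.0, adjusted p = 0.0817 and 0.0762) and GLRX (0.88 and 1.04, adjusted p = 0.101 and 0.0521) did not pass between the compounds at 4 and 8 h by limma. Against untreated LP-1 cells at 8 h neither passed by limma (0.63 ± 0.26, adjusted p = 0.191, and 0.57 ± 0.25, adjusted p = 0.212). In that comparison 3 of the 34 were called higher and 1 lower, where 434 of 22011 probe sets were higher and 1251 lower. Over untreated Raji cells both passed by limma at 4 and 8 h (SESN1 1.18 and 1.33, adjusted p = 0.0492 and 0.0205, GLRX 1.35 and 1.63, adjusted p = 0.0219 and 0.00503). There 4 of the 34 were called each time, against 1.26% and 2.26% of all probe sets. Those SESN1 calls were lost without any 1 array, and those of GLRX without 3 and 2 of 4.

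In the iron list, 1 of 21 genes fell in each line at each time. At 4 and 8 h 1.90% and 1.97% of all probe sets were called lower in LP-1, and 0.341% and 1.05% in Raji. The gene was SLC11A2, which encodes the iron importer DMT1. In LP-1 it was at 6.17 and 5.88 with the inactive enantiomer and 5.09 and 5.23 with the inhibitor at 4 h (-0.86 ± 0.15, adjusted p = 0.0108), and 5.70 and 5.72 against 5.06 and 5.02 at 8 h (-0.67 ± 0.15, adjusted p = 0.0224). In Raji it was at 5.71 and 5.34 against 4.65 and 4.67 at 4 h (-0.87 ± 0.15, adjusted p = 0.0138) and 5.69 and 5.49 against 4.96 and 4.85 at 8 h (-0.69 ± 0.15, adjusted p = 0.0388). All 8 inhibitor arrays lay below the inactive arrays of their line and time, and all 8 lay below the median of their own array, with no test against background. The calls at 8 h were lost without any 1 of the 4 arrays (highest adjusted p 0.102 in LP-1 and 0.225 in Raji). At 4 h they were lost in LP-1 without inhibitor replicate 1 or inactive replicate 1 (highest adjusted p 0.131) and in Raji without 3 of 4 arrays (all but inactive replicate 2, highest 0.120). HFE, a regulator of iron sensing, rose in LP-1 at 8 h from 3.08 and 2.83 to 3.49 and 3.74, also far below the array medians (0.66 ± 0.14, adjusted p = 0.0169), a call lost without inhibitor replicate 2 or inactive replicate 2 (highest adjusted p 0.127). It was the 1 gene of the list called higher there, where 3.76% of all probe sets were.

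TFRC, the transferrin receptor, and HMOX2, the constitutive haem oxygenase, did not pass in any of the 4 comparisons between compounds. TFRC differed by -0.11 to 0.16 (adjusted p 0.709 to 0.923) and HMOX2 by -0.10 to 0.49 (adjusted p 0.144 to 0.814). Of 19 genes of haem synthesis, transport and breakdown, 0 passed in LP-1 or Raji at 4 or 8 h by limma, and 1, 4, 5 and 4 had an unadjusted p under 0.05 in LP-1 at 4 and 8 h and Raji at 4 and 8 h, against 14.3%, 18.9%, 14.1% and 13.0% of all probe sets. The haem list medians were -0.14 and 0.04 in LP-1 and 0.04 and -0.03 in Raji.

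**Figure D5:**
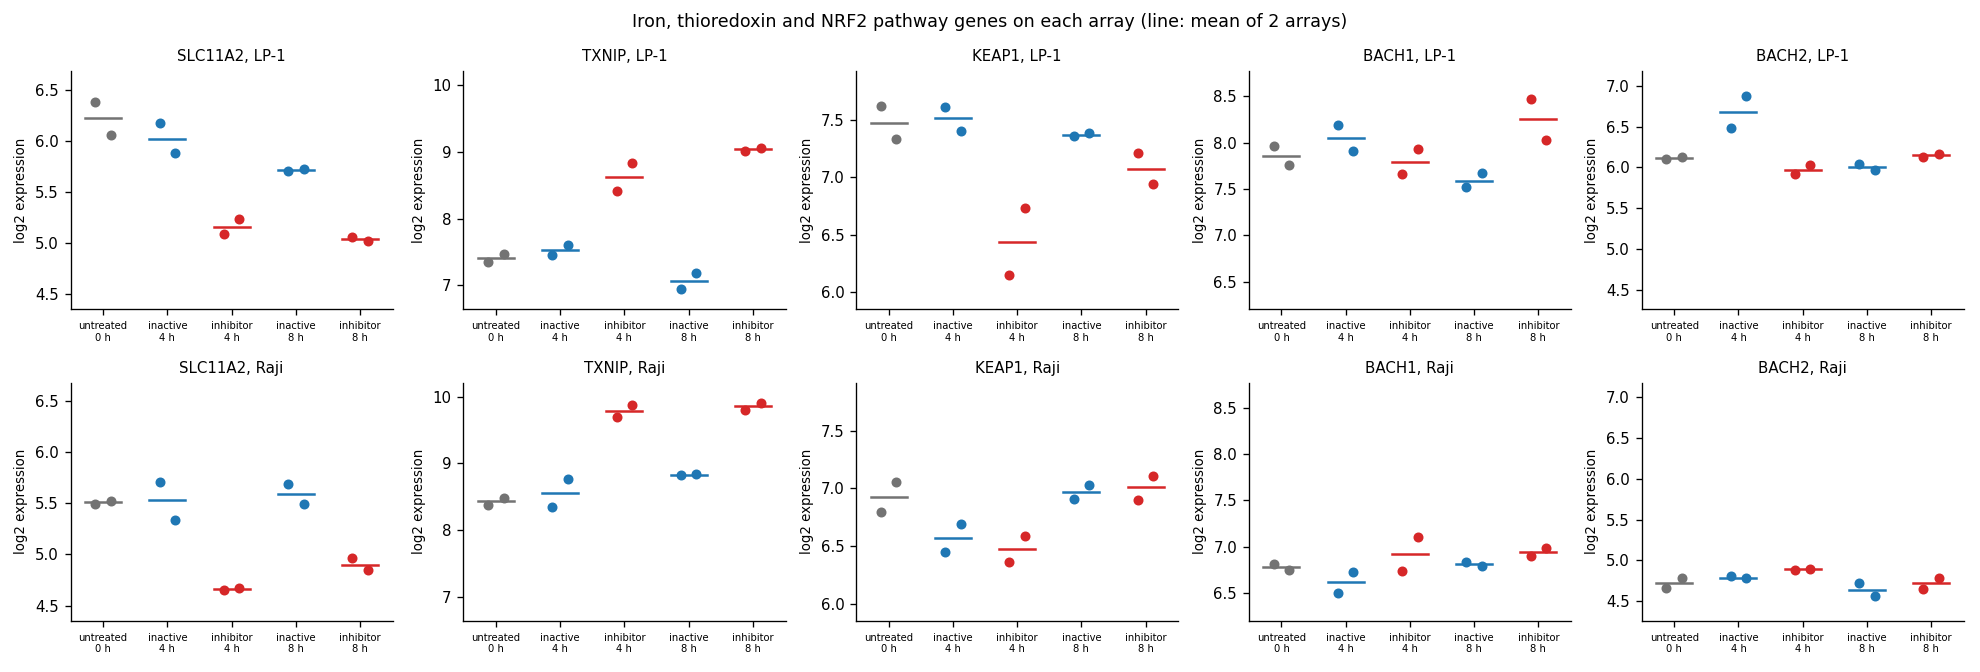
Log2 expression of SLC11A2, TXNIP, KEAP1, BACH1 and BACH2 on each array (points) with group means (lines), for LP-1 (top) and Raji (bottom), on the same scale for both lines of a gene. SLC11A2 is lower and TXNIP higher on all inhibitor arrays than on the inactive arrays of the same line and time, and KEAP1 is lowest, at 6.15, on LP-1 inhibitor 4 h replicate 1.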

How the data were processed

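Biotin-labelled cDNA, made from total RNA of LP-1 and Raji cells by whole-transcript amplification, was hybridised to Affymetrix exon arrays, per the labels. The deposited values are log2 expression values that the authors summarised per probe set with RMA in Affymetrix Expression Console on build hg19, per the submitters' processing notes, with versions not given in the sources used here. RMA compresses differences of dim probe sets, so folds of low genes can be understated. Gene symbols came from the platform's annotation: of 22011 probe sets, 14432 had 1 symbol, 2408 several and 5171 none, and 14404 of the first matched RefSeq, which supplied names and promoter sequences (GRCh38.p14) but no coordinates of probe sets.

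With 1 mean per group, all 20 arrays and 22011 probe sets entered a single linear fit in limma 3.58.1 in R 4.3.3 (10 residual degrees of freedom, prior degrees of freedom 2.59), after the code had been tested on simulated data. P-values are two-sided and adjusted by Benjamini-Hochberg over all probe sets, a gene is called, or passes, at an adjusted p under 0.05, errors are standard errors of the fit and intervals cover 95%. With 2 arrays a group, the spread behind the p-values is pooled over all 10 groups. The 10 genes, the wider lists and the markers were chosen with earlier results of these data known. The text always names the 10 genes, KEAP1, BACH1, BACH2, HMOX2 and TFRC (and NFE2L2, NQO1 and FTH1 where measured), then up to 4 genes per list called between the compounds in either line, by the largest difference, and the 4 genes most like HMOX1, FTL and SRXN1. The alternatives were a filter that drops the 7337 dimmest probe sets by mean, quantile normalization, median centring, a variance prior with an intensity trend, the replicate number as a block, a fit within each line and leaving out each array.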

Additional observations from a re-analysis of the deposited data

Results flagged for a closer look

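For 3 flagged genes both arrays of a group moved one way in LP-1 and the opposite way in Raji under the same comparison at 4 h. They are not the only ones. With the inactive enantiomer minus untreated, AKR1C3 (0.39 in LP-1 and -0.44 in Raji), OSGIN1 (0.09 and -0.28), GLRX (-0.21 and 0.48) and HSPA4L (-0.90 and 0.31) split too. AKR1C3 in both lines and HSPA4L in Raji lay far below every array median. With the inhibitor minus untreated at 4 h, OSGIN1 (0.35 and -0.32), IDH1 (-0.29 and 0.13) and BACH2 (-0.15 and 0.16) split as well. The share of all probe sets that split this way was not counted. TXNRD1 with the inhibitor minus the inactive enantiomer was -0.30 in LP-1 and 0.37 in Raji. BACH2 in that comparison was -0.71 in LP-1 and 0.09 in Raji, where it lay below the array medians, and its difference between the lines did not pass the test (0.80 ± 0.18, adjusted p = 0.0925). FTL with the inactive enantiomer minus untreated was 1.13 in LP-1 and -0.20 in Raji. The differences between lines of TXNRD1 and FTL were not tested. SESN3 differed between the lines by a test of the difference itself, the Raji value at 4 h standing 1.47 above that of LP-1 (adjusted p = 0.0363). This call was lost without 7 of 8 arrays in turn, all but LP-1 inhibitor replicate 2 (highest adjusted p 0.165), and with quantile normalization, median centring or the replicate block (highest 0.0769).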

How the results depend on the processing

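The directions of HMOX1, FTL and SRXN1 in LP-1 held under every alternative run. Without 1 array at a time, the inhibitor minus the inactive enantiomer ranged at 4 and 8 h from -2.05 to -1.98 and -1.74 to -1.33 for HMOX1, 0.90 to 1.09 and 1.19 to 1.44 for FTL, and 0.09 to 0.39 and 2.03 to 2.25 for SRXN1. The inactive enantiomer minus untreated ranged from 0.83 to 1.42 and 0.75 to 1.33 for FTL. Quantile normalization gave 0.45 for SRXN1 between the compounds at 4 h, and 1.27 for FTL and 0.72 for SRXN1 with the inactive enantiomer over untreated at 8 h. Of the 93 untested differences of the 10 genes, 18 turned sign under at least 1 alternative, in 35 cases. Among untested differences larger than the pooled spread between replicates, signs turned in 7 cases, 5 of them with 1 array left out. PRDX1 in LP-1 at 4 h ranged from -0.57 to 0.10 between the compounds with 1 array left out, positive without inhibitor replicate 1. With the inhibitor over untreated at 4 h it ranged from -0.54 to 0.13 and was 0.02 after quantile normalization, while SLC7A11 ranged from -0.89 to 0.00 and GCLM from -0.07 to 0.52. The Raji minus LP-1 difference at 4 h became -0.07 for GCLC after quantile normalization, and for PGD ranged from -0.01 to 0.35 with 1 array left out. Of the 77 tested differences of the 10 genes, 25 turned sign under at least 1 alternative, all of them uncalled and between -0.18 and 0.36, with those of HMOX1 in Raji among them.

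The count of 3 genes called in Raji with the inhibitor over untreated at 8 h became 4 with the filter, where FTL passed (adjusted p = 0.0438), 1 in the fit within Raji, where GCLC (adjusted p = 0.0903) and TXNRD1 (adjusted p = 0.0549) did not pass, and 0 to 1 with 1 array left out. The count of 0 at 4 h became 1 (GCLC) with the filter, quantile normalization, median centring or the intensity trend, and that of 0 between the compounds at 8 h became 1 (TXNRD1) after quantile normalization. With the replicate block the count in Raji at 8 h stayed 3, and 5 between the untreated lines. Replicate numbers did not pair the arrays: deviations of same-numbered arrays correlated at -0.03 to 0.12 in LP-1 and -0.16 to 0.05 in Raji. The genes named from the wider lists had 29 calls between the compounds. The fit within each line, which has fewer arrays for the spread, ended 22 of these and kept 7: IDH1, GLRX, SESN3 (3 calls), TXNIP in LP-1 at 8 h and TXNIP in Raji at 4 h. It also ended the call of IDH1 with the inactive enantiomer over untreated at 8 h (adjusted p = 0.134). The replicate block ended 3, those of BACH1 and GLRX in LP-1 at 8 h and DNAJB1 in Raji at 4 h. Median centring ended these 3 and those of AKR1C3, OSGIN1 and SESN1, quantile normalization those of BACH2, GLRX and OSGIN1, and the intensity trend that of AKR1C3. The filter dropped AKR1C3 and HFE, which were among the dimmest probe sets, and ended no call of the others.

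Calls over all probe sets varied more: between the compounds, 502 in LP-1 at 4 h ranged from 64 to 971 with 1 array left out and from 76 to 636 under other settings, 1262 at 8 h from 485 to 985 and 347 to 1545, 391 in Raji at 4 h from 27 to 154 and 49 to 560, and 414 at 8 h from 100 to 145 and 90 to 600. In Raji with the inhibitor over untreated at 8 h, 498 ranged from 79 to 145 and 148 to 757. The split between the untreated lines, 1495 higher and 3847 lower in Raji, was 2566 and 3031 after quantile normalization and 2231 and 3185 after median centring. No gene of the 10 had a further probe set with 1 symbol, so that alternative was not run. Arrays have no count of reads, and the level of HMOX1 in Raji limits what could be seen there.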

Other observations

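Of 14 measured heat shock genes, which respond to misfolded protein, DNAJB1, a cochaperone of HSP70, was higher with the inhibitor than with the inactive enantiomer at 4 h in both lines (1.08 ± 0.22 in LP-1, adjusted p = 0.0254, and 1.01 ± 0.22 in Raji, adjusted p = 0.0401). It was the only call of the list at 4 h, where 0.377% of all probe sets in LP-1 and 1.44% in Raji were called higher. At 8 h its differences were 0.18 (adjusted p = 0.744) and 0.45 (adjusted p = 0.441). In LP-1 the inactive arrays at 4 h (6.39 and 6.75) lay below the untreated ones (7.22 and 7.09). Against untreated cells at 4 h DNAJB1 with the inhibitor did not pass by limma in LP-1 (0.49 ± 0.22, adjusted p = 0.229) or Raji (0.89 ± 0.22, adjusted p = 0.0806). Its calls were lost without 3 of 4 arrays in LP-1 (all but inhibitor replicate 1, highest adjusted p 0.249) and without any 1 in Raji (0.30). In LP-1 at 8 h DNAJB4 rose (1.25 ± 0.27, adjusted p = 0.0168) and HSPA4L fell (-1.10 ± 0.25, adjusted p = 0.0225), each call lost without 3 of 4 arrays: DNAJB4 kept it without inactive replicate 2 and HSPA4L without inhibitor replicate 2. In Raji at 8 h HSPE1, a mitochondrial chaperonin, fell (-1.02 ± 0.21, adjusted p = 0.0265), a call lost without any 1 array. At 8 h 1 of the 14 was thus higher and 1 lower in LP-1 (3.76% and 1.97% of all probe sets), and 1 was lower in Raji (1.05%). The list medians lay between -0.03 and 0.21.

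RPIA was called in the list of 6 measured pentose phosphate genes, and acts in the branch that makes ribose rather than in the NADPH-making branch of PGD. It fell at 8 h in LP-1 (-0.72 ± 0.18, adjusted p = 0.0374) and in Raji (-1.0 ± 0.18, adjusted p = 0.0171), where PGD stood at 0.57 and 0.19. In these comparisons 1.97% and 1.05% of all probe sets were called lower. The calls of RPIA were lost without 3 of 4 arrays in LP-1 (all but inhibitor replicate 2) and without any 1 in Raji (highest adjusted p 0.265 and 0.120).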
